A study of Rattus norvegicus with 6 samples.

Results

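The genes examined were 10 antioxidant genes of the rat intervertebral disc, taken by name from the 30562 genes of the deposited count table. They were 6 established targets of the transcription factor NRF2 (Hmox1, Nqo1, Gclc, Gclm, Txnrd1 and Srxn1), the 3 superoxide dismutase genes (Sod1, Sod2 and Sod3) and the catalase gene Cat. All 10 names were found in the table, each with a single gene, and all 10 passed the filter on low counts that 15537 genes passed.

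Cells meet reactive oxygen species with enzymes that work in sequence. Superoxide dismutases turn superoxide into hydrogen peroxide, and catalase, glutathione peroxidases and peroxiredoxins then break the peroxide down. NRF2, encoded by Nfe2l2, is held in the cytoplasm and sent for degradation by KEAP1. When oxidants or electrophiles modify KEAP1, NRF2 accumulates, binds antioxidant response elements with small MAF proteins and raises transcription of genes for glutathione synthesis, thioredoxin reduction, quinone reduction and heme breakdown. Sod2 is better known as a gene induced by NF-kB during inflammation. Oxidative stress and inflammation are recognized features of the degenerating disc.

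The libraries came from tail discs of wild-type (WT) male Sprague-Dawley rats, 12 weeks old at surgery, in which an 18 G needle puncture had set off disc degeneration. AF-PTK@LEV@SPP1 is a particle made from bacterial outer-membrane vesicles and liposomes, which carries a small interfering RNA against Spp1 (osteopontin) and is coupled to a peptide that binds annulus fibrosus cells through a linker cleaved by reactive oxygen species. It was injected into the disc from 24 h after the puncture. The controls, labelled Control in the sample records, are called PBS here because the methods of the study describe injections of PBS. The comparison asks how gene expression in the punctured disc differed with the particle.

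The sources described the samples differently. The sample records call the controls untreated, give 14 days of treatment, speak of mice and of macrophages sorted by flow cytometry, and the study's text speaks of disc tissue from 3 rats per group and of imaging after 8 weeks. The libraries carried abundant matrix transcripts. The summed level of 13 cartilage and nucleus pulposus genes was 23593, 32373 and 32268 CPM (counts scaled to a common library total by the trimmed mean of M-values) in PBS replicates 1 to 3 and 44646, 31531 and 46281 in AF-PTK@LEV@SPP1 replicates 1 to 3, with Col2a1 the most abundant. That of 12 annulus and tendon fibroblast genes was 63749, 96948 and 97873 CPM against 120337, 86288.5 and 103894, with Col1a1 the most abundant. The 14 macrophage and monocyte genes summed to 3238, 2188 and 2166 CPM against 734, 2033 and 2039.6. The matrix lists thus took more reads than the macrophage list in every library, and the libraries are described below as disc tissue.

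Each library held 15560728 to 17942989 counts. PBS replicates 2 and 3 differed by little more than counting noise. Over 14393 genes the variance between them was 1.33 times that of counting, and 16 genes (0.111%) differed, whereas the 5 other pairs within a group reached 51.3 to 107 times. Replicates 2 and 3 were therefore counted as 1 sample, which left 3 AF-PTK@LEV@SPP1 samples against 2 PBS samples. Means and SD are over these distinct samples. Log2 fold changes are AF-PTK@LEV@SPP1 over PBS with their standard error (SE), and a gene was called at an adjusted p under 0.05 in edgeR's quasi-likelihood test over all genes. The gene table gave positions without naming a rat genome build, and the processing notes name mm10, a mouse build, so positions are quoted as the table has them.

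Of the 10 antioxidant genes, 2 fell with AF-PTK@LEV@SPP1, Sod2 and Txnrd1, and 0 passed the test in the other direction. Over all genes tested by edgeR, 3.7% were called, 2.57% lower and 1.13% higher. The normalized levels of all 10 genes did not overlap between the groups, 5 lower with AF-PTK@LEV@SPP1 (Hmox1, Nqo1, Txnrd1, Srxn1 and Sod2) and 5 higher (Gclc, Gclm, Sod1, Sod3 and Cat). Such separation was common in these data, at 45.8% of all genes, 23.9% higher and 21.9% lower. At an unadjusted edgeR p under 0.05, 3 of the 10 were lower and 3 higher, beside 13.0% and 12.4% of all genes. At an adjusted p under 0.05, DESeq2 called 3 lower and 1 higher, beside 6.39% and 4.88% of the 22112 genes it fitted, and limma-voom called 2 lower and 0 higher, beside 2.03% and 0.895% of all genes. When the 6 libraries were entered separately, 3 of the 10 passed lower (Sod2, Txnrd1 and Hmox1) and 2 higher (Sod3 and Cat), beside 18.1% of all genes, 9.93% lower and 8.2% higher. The median log2 fold change of the 10 genes was -0.08 and that of all genes 0.05. The median size of the change, regardless of direction, was 0.97 among the 10 and 0.34 among all genes.

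**Figure D1:**
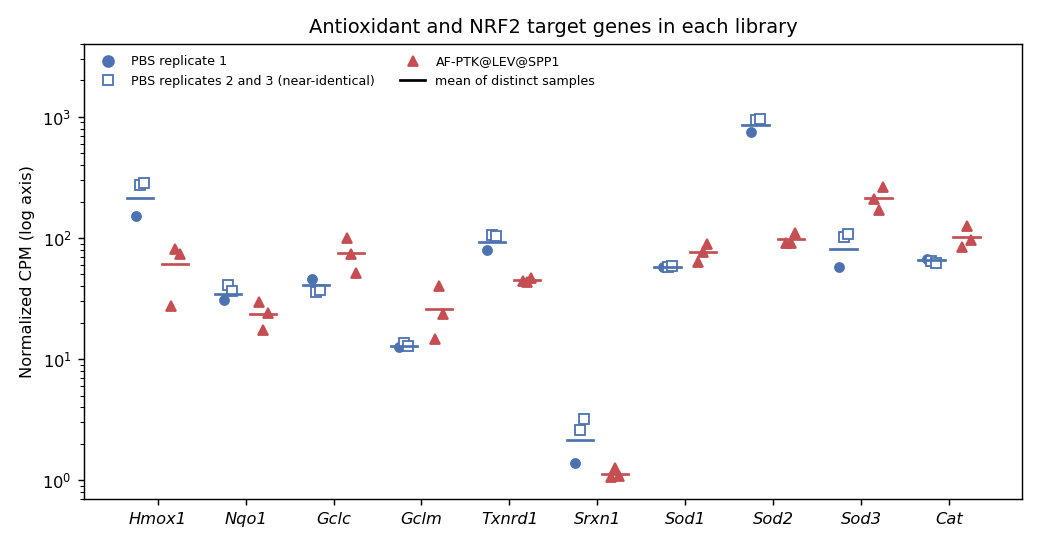
Normalized CPM of the 10 antioxidant genes in each of the 6 libraries, on a log axis, with PBS in blue (replicates 2 and 3 as open squares), AF-PTK@LEV@SPP1 as red triangles and a line at the mean of the distinct samples. Sod2 lies between 755 and 957 CPM in PBS and between 90.3 and 110.3 CPM with AF-PTK@LEV@SPP1, the widest separation of the 10 genes.

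The superoxide dismutases differ by where they act. Sod2 (ENSRNOG00000019048, chromosome 1, 47636528 to 47645189, minus strand) encodes the manganese enzyme of the mitochondrial matrix. Its level was 755, 937 and 957 CPM in PBS replicates 1 to 3 and 91.0, 90.3 and 110.3 CPM in AF-PTK@LEV@SPP1 replicates 1 to 3. Every PBS library lay far above every AF-PTK@LEV@SPP1 library, and the treated samples were close together. The mean was 851 ± 136 CPM (SD, n = 2) in PBS and 97.2 ± 11.4 CPM (SD, n = 3) with AF-PTK@LEV@SPP1, a level 8.76-fold lower. The log2 fold change was -3.14 (SE 0.19, 95% interval -3.61 to -2.67, edgeR adjusted p = 0.0119), lower in 3 of 3 treated samples. By the size of the log2 fold change Sod2 ranked 229 among the 15537 genes. In bulk tissue, fewer cells that carry a transcript and less transcript per cell cannot be told apart. The call was lost without AF-PTK@LEV@SPP1 replicate 2 (-3.08, edgeR adjusted p = 0.0679), without replicate 3 (-3.24, adjusted p = 0.130) and without the PBS pair (-2.97, adjusted p = 0.0561).

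Sod3 (ENSRNOG00000003869, chromosome 14, 58609958 to 58615990, minus strand) encodes the secreted copper-zinc enzyme, which binds to the extracellular matrix. Its level was 57.9, 101.4 and 108 CPM in PBS and 211, 170.4 and 262 CPM with AF-PTK@LEV@SPP1. All treated samples were above all PBS libraries, with PBS replicate 1 the lowest. The mean was 81.3 ± 33.1 CPM (SD, n = 2) against 214 ± 45.7 CPM (SD, n = 3), and the log2 fold change of 1.39 (SE 0.33, 95% interval 0.55 to 2.22) did not pass over the 5 samples (edgeR adjusted p = 0.0862). It passed with the 6 libraries entered separately (edgeR adjusted p = 0.0286) and in DESeq2 over the 5 samples (adjusted p = 0.00229).

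Sod1 (ENSRNOG00000002115, chromosome 11, 29456558 to 29462249, plus strand) encodes the cytosolic copper-zinc enzyme. Its level was 57.6, 57.2 and 59.1 CPM in PBS and 63.3, 76.9 and 89.6 CPM with AF-PTK@LEV@SPP1. The PBS libraries were nearly level and the lowest treated sample lay just above them. The log2 fold change of 0.40 (SE 0.17, 95% interval -0.03 to 0.82) did not pass (edgeR adjusted p = 0.220). Ccs, the gene of the chaperone that loads copper into SOD1, is counted among the related genes below.

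Within a library, the reads counted on the 3 superoxide dismutase genes were divided very differently in the groups. Sod2 took 86.7%, 85.5% and 85.1% of them in PBS and 24.9%, 26.7% and 23.9% with AF-PTK@LEV@SPP1. Sod3 took 6.65%, 9.25% and 9.62% in PBS and 57.8%, 50.5% and 56.7% with AF-PTK@LEV@SPP1. Sod2 therefore supplied most of these reads in every PBS library and Sod3 most of them in every treated library. Sod1 took 6.61%, 5.22% and 5.26% in PBS and 17.3%, 22.8% and 19.4% with AF-PTK@LEV@SPP1. These are shares of read counts, which also depend on transcript length, and they do not rank the genes by number of transcripts. A share need not follow the gene's own level, since the fall in Sod2 raises the shares of the other genes.

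**Figure D2:**
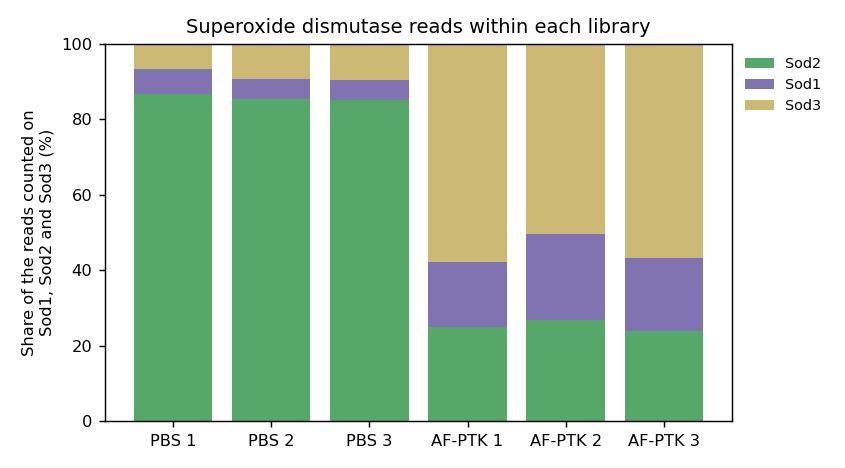
Share of the reads counted on Sod1, Sod2 and Sod3 that fell on each gene, in percent, for the 3 PBS and the 3 AF-PTK@LEV@SPP1 libraries, each bar being 1 library. Sod2 holds 85.1% to 86.7% in PBS and 23.9% to 26.7% with AF-PTK@LEV@SPP1.

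Catalase (Cat, ENSRNOG00000008364, chromosome 3, 89842399 to 89874478, minus strand) is the peroxisomal enzyme that splits hydrogen peroxide. Its level was 67.5, 64.1 and 62.5 CPM in PBS and 84.0, 124 and 95.7 CPM with AF-PTK@LEV@SPP1. The PBS libraries were tightly grouped and AF-PTK@LEV@SPP1 replicate 2 was the highest. The log2 fold change of 0.62 (SE 0.19, 95% interval 0.14 to 1.11) did not pass over the 5 samples (edgeR adjusted p = 0.133) and passed with the 6 libraries separate (edgeR adjusted p = 0.0360). Of 10 peroxisomal genes tested, 0 passed edgeR's adjusted threshold. At an unadjusted edgeR p under 0.05, 1 was higher, and DESeq2 called 1 higher, beside 12.4% and 4.88% of all genes.

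Among the NRF2 targets, Txnrd1 (ENSRNOG00000009088, chromosome 7, 20830045 to 20907863, minus strand) encodes the cytosolic thioredoxin reductase, which returns thioredoxin to its reduced form with electrons from NADPH. Its level was 79.7, 106 and 104 CPM in PBS and 43.9, 43.6 and 46.3 CPM with AF-PTK@LEV@SPP1. The treated samples were almost level with each other and all lay below the PBS libraries. The mean was 92.2 ± 17.6 CPM (SD, n = 2) against 44.6 ± 1.45 CPM (SD, n = 3), a level 2.07-fold lower, with a log2 fold change of -1.06 (SE 0.15, 95% interval -1.42 to -0.69, edgeR adjusted p = 0.0342). The call was lost without AF-PTK@LEV@SPP1 replicate 1 (edgeR adjusted p = 0.0727), replicate 2 (adjusted p = 0.103) or replicate 3 (adjusted p = 0.158), and without the PBS pair (adjusted p = 0.118), while the log2 fold change lay between -1.25 and -0.85 over 17 alternative analyses.

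Hmox1 (ENSRNOG00000014117, chromosome 19, 13467244 to 13474079, plus strand) encodes the inducible heme oxygenase, which cleaves heme into biliverdin, iron and carbon monoxide and is strongly expressed by macrophages that take up red cells. Its level was 151, 274 and 282 CPM in PBS and 27.6, 81.0 and 73.5 CPM with AF-PTK@LEV@SPP1. All treated samples were below all PBS libraries, and AF-PTK@LEV@SPP1 replicate 1 was well below the other treated samples. The mean was 215 ± 89.8 CPM (SD, n = 2) against 60.7 ± 28.9 CPM (SD, n = 3), a level 3.53-fold lower. The log2 fold change of -1.83 (SE 0.52, 95% interval -3.14 to -0.53) did not pass over the 5 samples (edgeR adjusted p = 0.113), and passed with the 6 libraries separate (edgeR adjusted p = 0.0337) and in DESeq2 (adjusted p = 0.00563).

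Macrophage transcripts differed between the same libraries. Of the 14 macrophage and monocyte genes, 13 had a negative log2 fold change, with a median of -0.83, none was at 0 in every library, and 3 were called lower by edgeR, beside 2.57% of all genes. These 3 were Cd68 (-1.97), Cd14 (-1.89) and Ms4a7 (-2.33), named after their values were seen. Cd163 went the other way (log2 fold change 1.15, SE 0.53, edgeR adjusted p = 0.246) and was also named after its values were seen. Its level was 54.0, 29.5 and 29.0 CPM in PBS and 47.1, 142 and 88.2 CPM with AF-PTK@LEV@SPP1, with overlapping groups. The most abundant gene of the list, Lyz2, was at 1831, 1266 and 1246 CPM in PBS and 271, 1241 and 1399.9 CPM with AF-PTK@LEV@SPP1, so that AF-PTK@LEV@SPP1 replicate 1, the sample lowest in Hmox1, was also the lowest in Lyz2 and in the summed level of the list. PBS replicate 1, the highest in that sum, was the lowest PBS library in Hmox1, Sod2 and Txnrd1. Of 9 endothelial genes, 8 had a negative log2 fold change, with 0 called by edgeR (5 lower at an unadjusted p under 0.05, and 4 by DESeq2, beside 13.0% and 6.39% of all genes). Their summed level was 621, 741 and 728 CPM in PBS and 455, 533 and 541 CPM with AF-PTK@LEV@SPP1, with Pecam1 the most abundant. The part of either cell type in the lower Hmox1, Sod2 and Txnrd1 levels was not tested.

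Gclc and Gclm encode the catalytic and the modifier subunit of glutamate-cysteine ligase, the rate-limiting enzyme of glutathione synthesis. Gclc (ENSRNOG00000006302, chromosome 8, 78630127 to 78668544, plus strand) was at 46.1, 35.8 and 37.0 CPM in PBS and 100.7, 74.1 and 51.3 CPM with AF-PTK@LEV@SPP1. Gclm (ENSRNOG00000013409, chromosome 2, 210347482 to 210367535, plus strand) was at 12.5, 13.7 and 12.9 CPM in PBS and 14.7, 39.9 and 23.7 CPM with AF-PTK@LEV@SPP1. The treated samples were spread widely for both genes, and in a different order, with replicate 1 the highest in Gclc and the lowest in Gclm. The log2 fold changes of Gclc (0.86, SE 0.31, edgeR adjusted p = 0.169) and Gclm (1.01, SE 0.43, edgeR adjusted p = 0.218) did not pass. The estimate for Gclc was 0.56 without AF-PTK@LEV@SPP1 replicate 1, and that for Gclm was 0.58 without replicate 2. The ratio of Gclc to Gclm counts was 3.70, 2.62 and 2.88 in PBS and 6.83, 1.86 and 2.16 with AF-PTK@LEV@SPP1, so the ratio overlapped between the groups.

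Blood and other tissue transcripts also set the treated samples apart from each other. The 12 erythroid genes, with Hba-a1 the most abundant, summed to 2775, 3371 and 3466 CPM in PBS and 2687, 21540.3 and 14578 CPM with AF-PTK@LEV@SPP1. All 12 had a positive log2 fold change and 0 were called by edgeR (1 at an unadjusted p under 0.05, and 3 by DESeq2). AF-PTK@LEV@SPP1 replicates 2 and 3 were thus the highest in erythroid transcripts as well as in Gclm and Cat, in the same order. Sod1 and Sod3, both highest in replicate 3, did not follow that order, and in PBS Cat was highest in replicate 1, the PBS library lowest in erythroid transcripts. The 12 neutrophil genes, with S100a9 the most abundant, summed to 1231, 198 and 186 CPM against 331, 3202 and 4282, with 11 of 11 tested genes positive, 0 called by edgeR (also 0 at an unadjusted p under 0.05 and by DESeq2) and none at 0 in every library. The 11 skeletal muscle genes, with Acta1 the most abundant, summed to 1407, 1819.9 and 1843 CPM against 1280.2, 13574 and 3407, with 11 positive and 0 called by edgeR, 0 at an unadjusted p under 0.05 and 0 by DESeq2. The 10 adipocyte genes, with Fabp4 the most abundant, summed to 572, 112 and 117 CPM against 1287, 2042 and 934, with 10 positive, all without overlap between the groups, and 0 called by edgeR (7 at an unadjusted p under 0.05, and 7 by DESeq2). Over all genes 23.9% were higher without overlap, 12.4% were higher at an unadjusted edgeR p under 0.05 and 4.88% were called higher by DESeq2. Where edgeR called 0 genes of a list of cell markers or related genes, limma-voom called 0 as well. The part of these cell types in the higher Gclm, Cat, Sod1 and Sod3 levels was not tested.

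AF-PTK@LEV@SPP1 replicate 1, the highest in Gclc, was also the highest in Krt8, a keratin of notochord-derived nucleus pulposus cells, at 1476 CPM against 477 and 523 CPM in replicates 2 and 3. PBS libraries had 287, 67.0 and 64.6 CPM of Krt8, and PBS replicate 1 was likewise the PBS library highest in Gclc. The order of treated replicates 2 and 3 was reversed between Krt8 and Gclc. The list was also divided. PBS replicate 1 was the lowest PBS library in Acan (2303, 4394 and 4436 CPM), Col2a1 (13858, 21110 and 20918 CPM), Sox9 and Comp. It was the highest in all other genes of the list. Among the AF-PTK@LEV@SPP1 samples, Col2a1 and Comp were highest in replicate 3. Krt8, Acan, Sox9 and Comp were named after their values were seen, and the relation of these genes to Gclc was not tested. In the cartilage and nucleus pulposus list 0 of 13 genes were called by edgeR. At an unadjusted edgeR p under 0.05, 4 were higher and 3 lower, beside 12.4% and 13.0% of all genes. DESeq2 called 4 higher and 2 lower, beside 4.88% and 6.39%. In the annulus and tendon list edgeR called 1 of 12 higher (Cilp, 2.69) and 1 lower (Lum, -3.40), beside 1.13% and 2.57%. Cilp and Lum were named after their values were seen.

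Nqo1 and Srxn1 completed the NRF2 targets. Nqo1 (ENSRNOG00000012772, chromosome 19, 35295573 to 35310557, minus strand), the quinone reductase often used as a readout of NRF2, was at 30.6, 40.6 and 36.7 CPM in PBS and 29.6, 17.4 and 23.97 CPM with AF-PTK@LEV@SPP1. PBS replicate 1 and AF-PTK@LEV@SPP1 replicate 1 were almost level, and the log2 fold change of -0.56 (SE 0.25, 95% interval -1.20 to 0.08) did not pass (edgeR adjusted p = 0.238). Srxn1 (ENSRNOG00000031167, chromosome 3, 140599608 to 140628448, plus strand), the sulfiredoxin that repairs overoxidized peroxiredoxins, had the fewest reads of the 10 genes, with 27, 40 and 52 counts in PBS and 18, 21 and 19 counts with AF-PTK@LEV@SPP1. Counts this low limit the precision, and the log2 fold change of -0.93 (SE 0.42, 95% interval -1.98 to 0.13) did not pass (edgeR adjusted p = 0.237). The estimate was -0.30 without the PBS pair and -1.36 without PBS replicate 1.

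Of the 6 NRF2 targets, 4 had a negative log2 fold change (Hmox1, Nqo1, Txnrd1 and Srxn1) and 2 a positive value (Gclc and Gclm), with a median of -0.74, and only Txnrd1 passed. These signs were the same under each of the 4 scalings tried. A two-sided exact permutation test of each gene alone gave p = 0.1 for Hmox1, Txnrd1, Srxn1, Sod2 and Sod3, the smallest that 3 samples against 2 allow, so this test could not reach 0.05. It gave an exact permutation p = 0.2 for Nqo1, Gclc, Gclm, Sod1 and Cat.

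**Figure D3:**
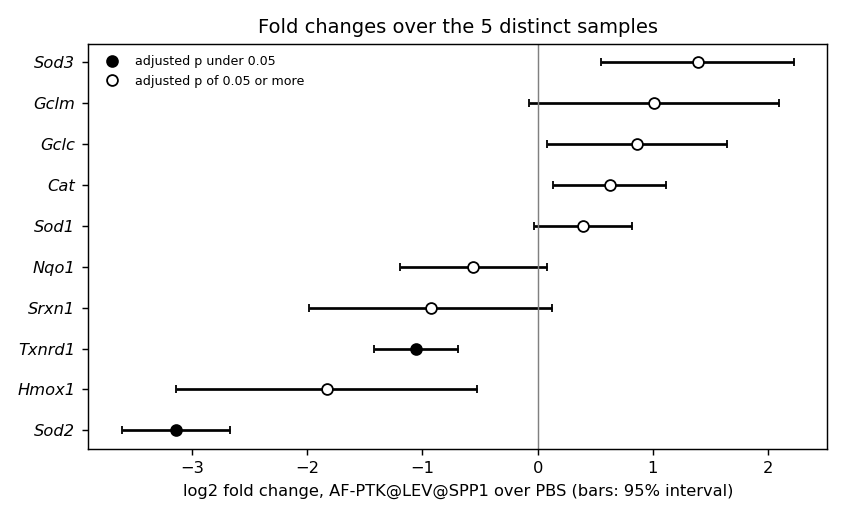
Log2 fold change of AF-PTK@LEV@SPP1 over PBS for the 10 antioxidant genes over the 5 distinct samples, with 95% intervals from edgeR that are not adjusted for multiple testing. Filled points, Sod2 at -3.14 and Txnrd1 at -1.06, have an adjusted p under 0.05, and open points do not.

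The regulators of the pathway were measured as well. Nfe2l2, which encodes NRF2 itself, was at 77.3, 83.6 and 88.6 CPM in PBS and 51.9, 58.3 and 70.7 CPM with AF-PTK@LEV@SPP1. The treated samples lay below the PBS libraries, and the log2 fold change of -0.45 (SE 0.16, 95% interval -0.86 to -0.04) did not pass (edgeR adjusted p = 0.172). Keap1 was at 21.0, 24.8 and 24.04 CPM in PBS and 26.5, 23.9 and 25.0 CPM with AF-PTK@LEV@SPP1, with overlapping groups (log2 fold change 0.14, SE 0.13, edgeR adjusted p = 0.534). NRF2 is controlled mainly through the stability of the protein, which transcript counts do not measure. The gene counted as Mafk is annotated as a long noncoding RNA on the minus strand, opposite a plus-strand gene of the same name with no reads, so its counts do not measure the small MAF protein's transcript. Of 9 regulators tested, this RNA included, 0 passed in edgeR. At an unadjusted edgeR p under 0.05, 3 were lower, and DESeq2 called 1 lower, beside 13.0% and 6.39% of all genes. The most abundant, Sqstm1, whose product binds KEAP1, had a log2 fold change of 0.12 (SE 0.17, edgeR adjusted p = 0.689).

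Of 96 other genes of the same pathways, 93 were matched to the table, 90 were tested, 2 rose and 4 fell in edgeR's test at an adjusted p under 0.05, beside 1.13% and 2.57% of all genes. At an unadjusted edgeR p under 0.05, 15 were higher and 20 lower, beside 12.4% and 13.0% of all genes. With the 6 libraries separate, 11 of 89 tested passed higher and 15 lower, beside 8.2% and 9.93% of all genes. Without AF-PTK@LEV@SPP1 replicate 2, without replicate 3 or without the PBS pair, 0 of these genes passed in edgeR (14, 11 and 12 higher and 18, 16 and 10 lower at an unadjusted p under 0.05), and without AF-PTK@LEV@SPP1 replicate 1 or PBS replicate 1 the calls were 0 higher and 1 lower or 1 higher and 2 lower. The median log2 fold change of the 90 was 0.05, the same as over all genes to this precision. The names Pgd, Cbr1 and Ugt1a6 had no match, Rbx1 and Dao were below the filter, and Hao2 was at 0 in every library.

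The genes that fell were Prdx5 and all 3 metallothionein genes. Prdx5, a peroxiredoxin of mitochondria, peroxisomes and cytosol, was at 293, 311 and 305 CPM in PBS and 66.6, 81.9 and 85.6 CPM with AF-PTK@LEV@SPP1. Its levels were even within each group and far apart between them, with a log2 fold change of -1.95 (SE 0.15, edgeR adjusted p = 0.0159), and its annotated span overlaps that of Esrra. Metallothioneins bind zinc and copper and scavenge radicals. Mt2A, the most abundant of its class, was at 299, 354 and 339 CPM in PBS and 103, 100.9 and 148 CPM with AF-PTK@LEV@SPP1. Mt1 was at 151, 144 and 144 CPM against 60.9, 51.6 and 74.9, and Mt3 at 61.3, 33.4 and 30.9 CPM against 10.2, 9.88 and 10.1. All treated samples were below all PBS libraries for each of them, with log2 fold changes of -1.47 for Mt2A (edgeR adjusted p = 0.0381), -1.25 for Mt1 (adjusted p = 0.0367) and -2.22 for Mt3 (adjusted p = 0.0298). The 3 genes are closely related and lie together on chromosome 19, and reads shared among them could have been divided by the counting.

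The genes that rose were Gstp1 and Ephx1, both of electrophile detoxification, and neither passed edgeR's test with library totals as the scaling. Gstp1, a glutathione S-transferase, was at 60.9, 55.8 and 58.1 CPM in PBS and 100.7, 89.8 and 100.1 CPM with AF-PTK@LEV@SPP1. The groups were tight and did not overlap, with a log2 fold change of 0.71 (SE 0.11, edgeR adjusted p = 0.0423). Reads from close relatives of Gstp1 cannot be separated with these counts. Ephx1, the microsomal epoxide hydrolase, was at 9.80, 6.30 and 8.24 CPM against 20.7, 22.4 and 17.99 CPM (log2 fold change 1.25, SE 0.20, edgeR adjusted p = 0.0421), and its span overlaps that of another annotated gene.

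**Figure D4:**
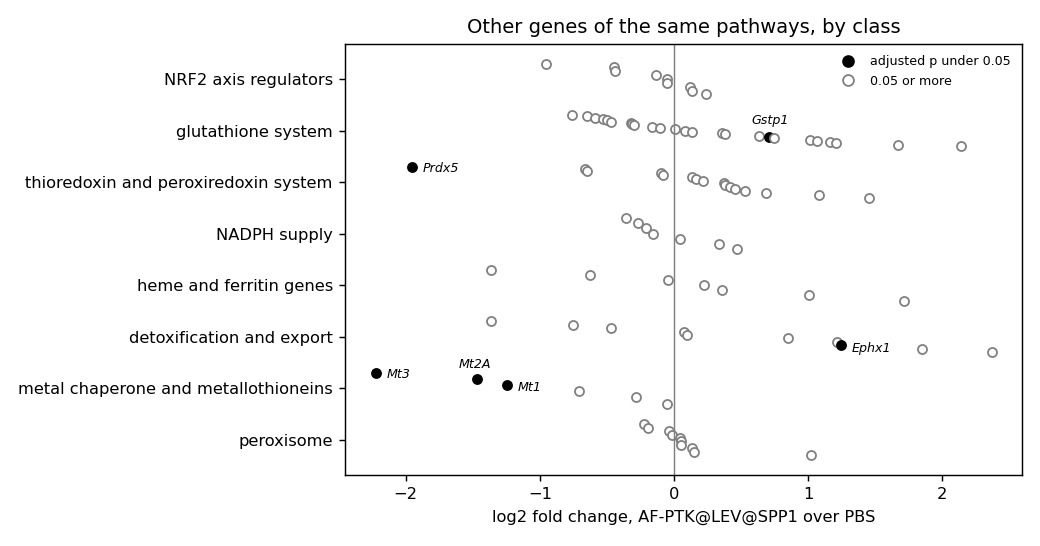
Log2 fold change of AF-PTK@LEV@SPP1 over PBS for the 90 tested genes of related pathways, 1 point per gene, by class. Filled points have an edgeR adjusted p under 0.05 and are named, with Prdx5 (-1.95) and the metallothioneins lower, and Gstp1 (0.71) and Ephx1 (1.25) higher.

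Other genes of the thioredoxin system were set beside Txnrd1. Txnip, which binds and inhibits thioredoxin, was the most abundant gene of its class, at 492, 317 and 319 CPM in PBS and 1071, 1336 and 948 CPM with AF-PTK@LEV@SPP1. No treated sample overlapped PBS, and the log2 fold change of 1.46 (SE 0.28) was just short of the threshold over the 5 samples (edgeR adjusted p = 0.0604). Of 16 genes of this system 1 was called, Prdx5, beside 3.7% of all genes. At an unadjusted edgeR p under 0.05, 4 were higher and 3 lower, beside 12.4% and 13.0% of all genes. DESeq2 called 2 higher and 3 lower, beside 4.88% and 6.39%. The log2 fold change was positive for 11 and negative for 5, and it was positive for 8420 of the 15537 genes tested. Around Gclc and Gclm, 1 of 25 genes of the glutathione system was called, Gstp1, with 14 positive and 11 negative values. At an unadjusted edgeR p under 0.05, 6 were higher and 6 lower, and DESeq2 called 5 higher and 4 lower. The shares of all genes just given apply here as well. Gpx1, the most abundant, had a log2 fold change of 0.08 (SE 0.28, edgeR adjusted p = 0.884).

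Around Hmox1, iron released from heme is stored in ferritin. Fth1, the ferritin heavy chain gene, was at 1857, 3005 and 3039 CPM in PBS and 855, 991 and 1015 CPM with AF-PTK@LEV@SPP1. Like Hmox1, Fth1 was lower in all treated samples than in any PBS library and lowest in AF-PTK@LEV@SPP1 replicate 1. Its log2 fold change of -1.36 (SE 0.27) was short of the threshold over the 5 samples (edgeR adjusted p = 0.0616) and passed with the 6 libraries separate (edgeR adjusted p = 0.0126). The annotated span of Fth1 overlaps 5 other genes and ferritin genes have many pseudogene copies, so its counts are uncertain. Of 7 heme and ferritin genes 0 passed in edgeR (1 higher and 2 lower at an unadjusted p under 0.05, and also by DESeq2). Of 7 genes of NADPH supply 0 passed in edgeR, 0 at an unadjusted p under 0.05 and 0 by DESeq2, and the most abundant, Tkt, had a log2 fold change of 0.33 (SE 0.22, edgeR adjusted p = 0.379). Of 10 detoxification and export genes 1 was called, Ephx1, beside 3.7% of all genes. In this list 3 were higher and 2 lower at an unadjusted edgeR p under 0.05, and DESeq2 called 2 higher and 1 lower. Over all genes, 12.4% were higher and 13.0% lower at an unadjusted edgeR p under 0.05. By DESeq2, 4.88% of all genes were called higher and 6.39% lower. Abcc1, the most abundant, had a log2 fold change of 0.07 (SE 0.16, edgeR adjusted p = 0.803).

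RefSeq promoter windows of the rat build GRCr8, from 250 bases before to 50 bases after a gene's start, were at hand for 8 of the 10 genes, with 2 windows for Txnrd1, and not for Hmox1 and Sod3. They were searched on both strands for TGACNNNGC, the core of the antioxidant response element bound by NRF2, which shares its first letters with the AP-1 motif TGACTCA. The core was found in 3 of the 9 windows, those of Sod2, Gclm and 1 of the Txnrd1 starts. Of all 33469 rat windows 12.1% held it, and of those of the genes tested here 14.2%. A match of this length is a description of the sequence and not a binding site, and its absence says only that these letters were not in the window. The matches are shown because Sod2 and Txnrd1 were the called genes and Gclm lies on the other side of 0. Each stretch is given 5′ to 3′ on the strand of its gene, with the match in capitals. In all 3 the core was read on the opposite strand, as TGACCCTGC for Sod2, TGACTAAGC for Gclm and TGACAAAGC for Txnrd1. The matches began 35, 172 and 78 bases before the start of Sod2, Gclm and Txnrd1. The stretches lie at chr1:50050165-50050233 (minus strand), chr2:213031933-213032001 (plus strand) and chr7:22755944-22756012 (minus strand).
Sod2: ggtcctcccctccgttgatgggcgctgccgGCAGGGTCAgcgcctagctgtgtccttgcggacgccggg
Gclm: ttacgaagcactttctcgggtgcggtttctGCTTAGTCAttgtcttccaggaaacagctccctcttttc
Txnrd1: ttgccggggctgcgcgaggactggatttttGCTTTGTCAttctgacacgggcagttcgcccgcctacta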

How the data were processed

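The authors deposited counts of reads per Ensembl rat gene for 6 libraries, with no normalization. The columns, headed IVD or AFPTK with a number, were matched to the control and treated samples by name. The direction of every fold change rests on this match. The submitters' processing notes name FastQC, Trimmomatic, HISAT2, featureCounts and DESeq2, and the build mm10, which is a mouse build. Versions and the use of strand in counting are not given in the sources used here. PBS replicates 2 and 3 were summed. For the 5 samples, edgeR 4.0.16 (R 4.3.3) was run with trimmed mean of M-values normalization, filterByExpr at its minimum count of 10, the quasi-likelihood test and Benjamini-Hochberg adjustment over all genes. Per-library CPM used the same scaling over 6 libraries. DESeq2 1.42.0, limma 3.58.1 and other scalings, filters and left-out samples were alternatives. The edgeR, limma and DESeq2 steps were tested on simulated counts with known changes. There DESeq2 made more false calls than its threshold allows, and its calls are given here as an alternative. In edgeR the share of false calls was slightly above the threshold, and part of the changed genes was missed. Tables and plots were made in Python 3.11.15.

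The genes, related pathway list and marker lists were chosen with earlier results of these data known. Named were all 10 genes, Nfe2l2 and Keap1, related genes at an adjusted p under 0.05, the most abundant gene of each class or marker list and genes at 0. Not every gene named by this rule is reported here. Where 2 genes carried 1 name (Ftl1, Mafk), the gene with more counts was used. The table annotates the rows of Mafk and Gpx3 as long noncoding RNAs.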

Additional observations from a re-analysis of the deposited data

How the results depend on the processing

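The 10 antioxidant genes kept the sign of their log2 fold change in each of 17 alternatives, and their groups did not overlap with the 6 libraries separate or with library totals as the scaling. The number of calls was less steady. Entering the 6 libraries separately called 2727 genes in place of 575, 2 of the 10 higher in place of 0, and 11 related genes higher and 15 lower in place of 2 and 4. DESeq2 over the 5 samples called 2493 genes, 1 of the 10 higher (Sod3), and 11 related genes higher and 14 lower. With library totals 0 related genes were called higher by edgeR (16 at an unadjusted p under 0.05), and with no filter 1. Leaving out replicates gave 0 to 566 genes, 0 of the 10 higher, 0 to 2 of the 10 lower, and 0 to 2 related genes higher and 0 to 4 lower. The upper end came from leaving out PBS replicate 2 (562 genes) or 3 (566 genes), which kept 5 distinct samples. Leaving out a distinct sample gave 0 to 280 genes. The counts of 0 came without AF-PTK@LEV@SPP1 replicate 2 (3109 genes at an unadjusted edgeR p under 0.05, of the 10 genes 2 higher and 3 lower) and without replicate 3 (2699 genes, 3 higher and 3 lower). Without the PBS pair 3 genes were called, with 0 of the 10 lower (2 at an unadjusted edgeR p under 0.05). Without AF-PTK@LEV@SPP1 replicate 1 edgeR called 113 genes, Sod2 among them, and without PBS replicate 1 it called 280, with Sod2 and Txnrd1 lower. Without PBS replicate 1 or without the PBS pair, a single PBS sample remains and is assumed to vary like the treated ones. For limma-voom 454 genes passed, with 2 of the 10 lower and 0 higher. The cause of the differences between tools was not tested.

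With the replicate number as a replicate block over the 6 libraries, edgeR called 741 genes, 3 of the 10 lower (Sod2, Txnrd1 and Hmox1, the last at an adjusted p of 0.0316) and 0 higher (5 at an unadjusted p under 0.05), and 3 related genes higher and 6 lower. Ephx1 lost its call there (edgeR adjusted p = 0.0539). Libraries of the same number did not deviate together from their group means (correlations -0.33, -0.28 and -0.08 across genes). PBS replicates 2 and 3 are near-identical and deviate alike, so this check cannot tell whether the numbers pair the rats.

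With 5 distinct samples, 2 of them PBS, the spread between rats limits the calls, and an adjusted p above the threshold does not show equal levels. The SD of PBS rests on 2 values. Intervals for Nqo1, Gclm, Srxn1 and Sod1 include 0. Levels are relative to all transcripts of the tissue piece, whose content of blood, muscle, fat and macrophage transcripts differed between libraries, and the sample records and the study's text differ on sorting and on time. Protein amount, enzyme activity and NRF2 binding were not measured in these libraries.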
